A study of Rattus norvegicus with 4 samples.

Results

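The enzymes that make and break down eicosanoids were followed in AA4-selected cells of rat lymph nodes, which the labels call mast cells. All probe sets that the platform annotation assigns to Alox5, Alox5ap, Lta4h, Ltc4s, Ptgs1, Ptgs2, Hpgds, Tbxas1, Hpgd or Pla2g4a, and to no other gene, were taken, which gave 10 of the 14217 genes with a probe set of their own and 12 of 31042 probe sets, controls left out. Ptgs1 and Hpgd had 2 probe sets each and the other genes 1. The cells came from pancreatic lymph nodes of female BioBreeding (BB) rats at day 65 and had been selected with AA4, an antibody against gangliosides of the rat mast cell surface. The first group was of DRlyp/lyp rats, labelled diabetic prone, which are homozygous for the lyp mutation of Gimap5. The other was of DR+/+ rats, labelled diabetic resistant, with the normal gene on the same BB background. Per the series' design text, each group was 1 RNA pool of 8 rats, amplified separately for 2 arrays, so that 4 arrays were made. The p-values below compare the 2 pools over the spread between amplifications and say nothing of the spread between rats.

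Eicosanoids are lipid mediators made on demand from arachidonic acid, which cytosolic phospholipase A cuts out of membrane phospholipids. Lipoxygenase and its helper protein turn arachidonate into an unstable leukotriene, from which a hydrolase makes the neutrophil attractant leukotriene B and a synthase the cysteinyl leukotrienes that contract airways and open vessels. Cyclooxygenases turn it into prostaglandin H, from which separate synthases make prostaglandin D, the main prostanoid of activated mast cells, or thromboxane, a product of platelets and macrophages, and a dehydrogenase inactivates prostaglandins after their action.

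Along this pathway the differences ran in opposite directions. The prostaglandin-inactivating dehydrogenase Hpgd was lower in the DRlyp/lyp pool on both of its probe sets, by 3.56-fold and 7.57-fold. Hpgds, the prostaglandin D synthase of haematopoietic cells, was lower by 1.5-fold. Thromboxane synthase Tbxas1 was higher by 2.03-fold, the cyclooxygenase Ptgs1 by 1.5-fold and the leukotriene hydrolase Lta4h by 1.22-fold. Of the 12 probe sets, 10 had signal above the pooled median of all probe sets, 28.3, on every array and were tested, and 2 lay below it on every array and were not. No tested member had therefore passed the filter through 1 pool alone. At an adjusted p under 0.05 (limma, adjusted over all 16068 probe sets tested), 6 of the 10 differed, with 3 higher in the DRlyp/lyp pool and 3 lower. Of all tested probe sets 39.2% were called, 19.3% as higher and 19.9% as lower. The median size of the log2 difference was 0.44 over the 10 members and 0.39 over all tested probe sets, so that the enzymes as a set lay near the background of a comparison in which many genes differed. The arrays of the pools did not overlap for 8 of the 10, which was also so for 70% of all tested probe sets.

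The whole array and the makeup of the cells set the frame for these values. Most T cell, exocrine pancreas and mast cell markers that were called were higher in the DRlyp/lyp pool. Each marker was taken by its brightest tested probe set. Of all 9349 genes taken in this way, 20.9% were called higher and 21.1% lower. The summed signal of the tested T cell markers was 11434 to 11496 on the DRlyp/lyp arrays and 2541 to 2807 on the DR+/+ arrays, with 14 of 15 called higher and 1 lower. For exocrine pancreas markers it was 13102 to 13740 and 476 to 522, with 19 of 19 higher. Mast cell markers summed to 6937 to 7197 and 4801 to 4941, with 5 of 12 higher and 2 lower. The mast cell receptor Kit stayed below 28.3 on all 4 arrays, at 1.4 and 2 in the DRlyp/lyp pool and 10.4 and 11.3 in the DR+/+ pool, whereas the mast cell carboxypeptidase Cpa3 read 527.8 and 515.6 against 425.8 and 462.1. Macrophage and dendritic cell markers summed to 26875 to 27599 and 28370 to 29213, with 5 of 18 higher and 9 lower, and B cell markers to 17952 to 19104 and 22679 to 24116, with 0 of 12 higher and 7 lower. In pooled cells of this kind, fewer cells of a type and less RNA per cell cannot be told apart. The 3′ to 5′ log2 signal difference of the beta-actin control, a measure of RNA length, was 4.43 and 4.55 on the DRlyp/lyp arrays and 3.01 and 3.10 on the DR+/+ arrays, and with 1 pool per group it cannot be told apart from any difference given here.

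The promoters of 3 members are printed because Hpgd had the largest difference of the set and Ptgs1 and Tbxas1, which act one after the other on the way to thromboxane, were both higher. Each is the RefSeq sequence (GRCr8) from 250 bases before to 50 after the gene's start, 5′ to 3′ on the gene's strand. Capitals mark letters found on either strand. They are TATAAA, an element near many start sites, and GGGCGG, the GC box bound by Sp factors. CCAAT, the box of the same name, was also searched. GAGGAA is a core of sites for PU.1, a factor of myeloid and mast cells, TGANTCA a core of AP-1 and NF-E2 sites, and CACGTG the E-box. The motifs were chosen after the sequences had been seen. Hpgd lies at chr16:39034782-39035081 on the minus strand, Tbxas1 at chr4:68631635-68631934 and Ptgs1 at chr3:39981169-39981468, both on the plus strand.
Hpgd: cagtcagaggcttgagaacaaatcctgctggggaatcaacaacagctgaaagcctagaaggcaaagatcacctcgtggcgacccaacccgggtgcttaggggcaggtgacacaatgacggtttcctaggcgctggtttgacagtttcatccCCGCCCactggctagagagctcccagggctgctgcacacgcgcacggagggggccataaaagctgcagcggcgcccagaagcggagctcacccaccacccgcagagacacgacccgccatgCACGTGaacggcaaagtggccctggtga
Tbxas1: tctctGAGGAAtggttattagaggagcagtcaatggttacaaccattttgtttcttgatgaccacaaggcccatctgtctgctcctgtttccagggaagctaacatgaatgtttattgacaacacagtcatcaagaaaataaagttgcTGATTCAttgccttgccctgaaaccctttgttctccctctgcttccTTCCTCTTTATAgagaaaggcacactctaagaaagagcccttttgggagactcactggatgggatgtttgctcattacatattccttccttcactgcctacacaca
Ptgs1: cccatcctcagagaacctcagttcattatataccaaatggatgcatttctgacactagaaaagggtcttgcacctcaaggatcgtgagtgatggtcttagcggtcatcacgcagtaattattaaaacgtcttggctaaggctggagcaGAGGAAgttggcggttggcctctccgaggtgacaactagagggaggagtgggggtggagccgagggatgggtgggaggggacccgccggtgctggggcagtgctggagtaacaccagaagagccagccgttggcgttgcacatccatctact

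The GAGGAA core stood in the promoters of both Ptgs1 (1 match) and Tbxas1 (2 matches), and in Lta4h among the others. It was present in 3 of the 8 member promoters in the table and in 27.6% of all 33469 rat promoters of this length. Tbxas1 alone of the 8 held TGANTCA, which 7.33% of all promoters held. In Tbxas1 a reverse-strand GAGGAA match and a reverse-strand TATAAA match lie end to end and appear as 1 run of capitals. The Hpgd promoter held a GC box on the reverse strand, which 4 of the 8 and 33.1% of all promoters had, and an E-box downstream of the start, which 2 of the 8 and 6.42% of all had. The TATAAA letters were found in 2 of the 8 (14.2% of all) and the CCAAT letters in 3 of the 8 (37.5% of all). A match is only a description of the letters, and a missing match says nothing about a factor. Pla2g4a and Ptgs2 lie on the same chromosome of GRCr8 with 2 annotated genes between them, of which 0 are protein-coding.

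Release of arachidonate is the first step. Pla2g4a, the cytosolic phospholipase A that responds to calcium, read 223.3 and 231.3 in the DRlyp/lyp pool and 267.7 and 262.8 in the DR+/+ pool. The arrays of the DRlyp/lyp pool were both lower and the pools did not overlap, but the log2 difference of -0.22 (95% interval -0.52 to 0.08) was not past the threshold (limma adjusted p = 0.224).

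**Figure D1:**
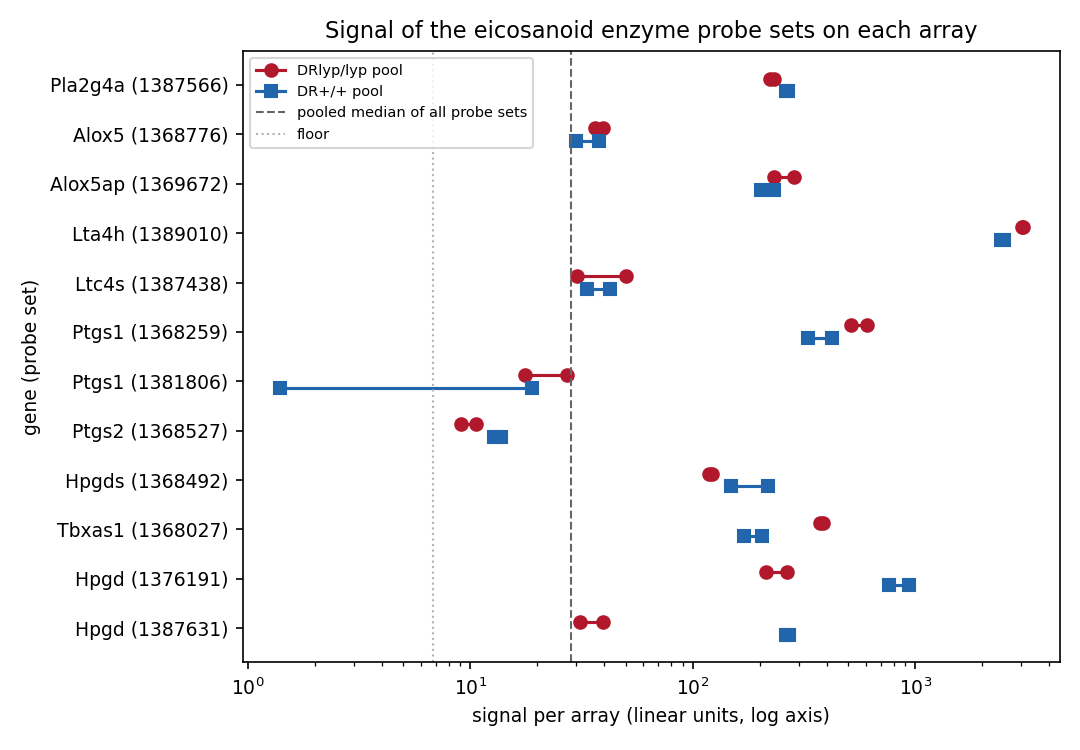
Signal of each of the 12 probe sets on each array, on a log axis in linear signal units, with the DRlyp/lyp pool as circles and the DR+/+ pool as squares, a line joining the 2 arrays of a pool, a dashed line at the pooled median of 28.3 and a dotted line at the floor of 6.8. The pools stand furthest apart for both Hpgd sets, and Ptgs2 and the second Ptgs1 set lie left of the dashed line on every array.

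Among the leukotriene enzymes, Lta4h alone differed past the threshold, and by little. Lta4h, which hydrolyses the unstable leukotriene A to leukotriene B, read 3036.9 and 3014.6 in the DRlyp/lyp pool against 2435.9 and 2510.4 in the DR+/+ pool. Its duplicates lay close together in each pool and the pools did not overlap. The log2 difference was 0.29 ± 0.06 (SE, n = 2 arrays per pool), or 1.22-fold, with a limma adjusted p of 0.00206. With each array centred on its median it was 0.18 and not past the threshold (adjusted p = 0.124).

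The enzymes upstream and beside it gave no call. Alox5ap, the membrane protein that hands arachidonate to the lipoxygenase, read 285.8 and 232.8 in the DRlyp/lyp pool against 231.2 and 203.6 in the DR+/+ pool, a log2 difference of 0.25 (95% interval -0.09 to 0.59, limma adjusted p = 0.231). The lower DRlyp/lyp array was within 2 units of the higher DR+/+ array. Alox5, the lipoxygenase that starts leukotriene synthesis, read 36.3 and 39.5 against 38.1 and 30, and the pools overlapped. Its difference of 0.16 had an interval of -0.60 to 0.92 (adjusted p = 0.743). Ltc4s, which joins glutathione to leukotriene A to make the first cysteinyl leukotriene, read 30.3 and 50.2 against 42.5 and 33.5 and also overlapped, with a difference of 0.05 and an interval of -0.75 to 0.85 (adjusted p = 0.932). Alox5 and Ltc4s lay just above 28.3, and at that signal a change of 1.5-fold in either direction was within both intervals. For neither gene was a difference detected, and none was shown to be absent.

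The cyclooxygenases differed in whether they could be measured. Ptgs1, the constitutive cyclooxygenase, read 608.5 and 515.4 on its brighter probe set (1368259) in the DRlyp/lyp pool against 329.9 and 422.7 in the DR+/+ pool. Both DRlyp/lyp arrays were above both DR+/+ arrays, although the duplicates of each pool were about as far apart as the nearest arrays of different pools. The log2 difference was 0.58 ± 0.14 (SE), with a limma adjusted p of 0.00590. Without DRlyp/lyp replicate 1 it was 0.46 and the call was lost (adjusted p = 0.115).

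The second Ptgs1 probe set (1381806), made from an expressed sequence tag, read 27.1 and 17.6 in the DRlyp/lyp pool against 19 and 1.4 in the DR+/+ pool. All values were below 28.3 and the pools overlapped, so that no fold is given. Ptgs2, the inducible cyclooxygenase, read 9.1 and 10.6 against 12.8 and 13.8 and was likewise not above the filter on any array. Its DRlyp/lyp arrays were the lower ones, but at this signal no level above background was shown in either pool. In the fit without a filter, neither the second Ptgs1 set (adjusted p = 0.567) nor Ptgs2 (adjusted p = 0.180) was past the threshold.

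The synthases that share prostaglandin H as substrate went opposite ways. Tbxas1, thromboxane synthase, read 384.5 and 371.6 in the DRlyp/lyp pool against 204.2 and 170.4 in the DR+/+ pool. The pools were well apart, with a log2 difference of 1.02 ± 0.14 (SE, limma adjusted p = 0.000203). The 4 pairings of a DRlyp/lyp with a DR+/+ array gave differences of 0.86 to 1.17. Of all tested probe sets, 6.42% had a difference as high or higher.

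Hpgds read 118.1 and 122.1 in the DRlyp/lyp pool against 217 and 148.6 in the DR+/+ pool. The DRlyp/lyp duplicates agreed closely, while the DR+/+ duplicates differed by 0.55 on the log2 scale, against a median of 0.20 over all tested probe sets in that pool. The log2 difference of -0.58 ± 0.21 (SE) was just past the threshold (limma adjusted p = 0.0418). It missed the threshold when DRlyp/lyp replicate 1 was left out (-0.56, adjusted p = 0.193), and likewise for DRlyp/lyp replicate 2 (-0.60, with an adjusted p of 0.157) and DR+/+ replicate 1 (-0.31, with an adjusted p of 0.246). It also missed it with quantile normalization (adjusted p = 0.0521). Hpgds is also a gene of mast cells. The mast cell marker list was higher in sum and the macrophage and dendritic cell list lower, each with calls in both directions. The part of either list in this result was not tested.

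**Figure D2:**
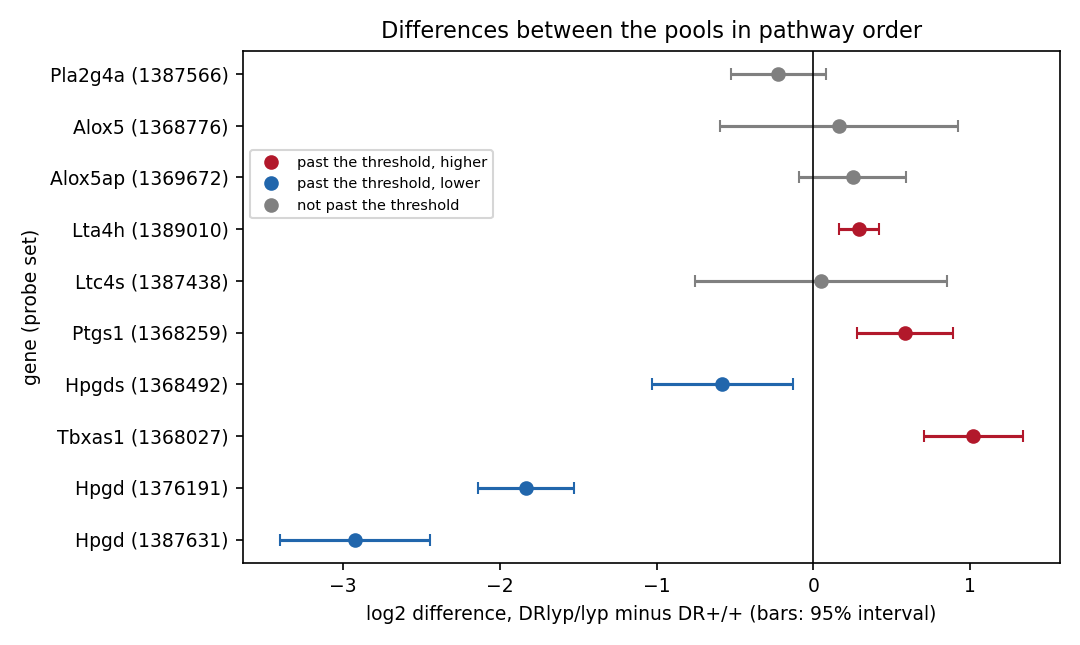
Log2 difference, DRlyp/lyp minus DR+/+, of the 10 tested probe sets in pathway order from release to breakdown, with 95% intervals from limma and colours for the calls. Tbxas1 at 1.02 and both Hpgd sets at -1.83 and -2.92 lie furthest from 0. The intervals of Lta4h, Ptgs1 and Hpgds also exclude 0, while those of Alox5 and Ltc4s are the widest and span it.

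Breakdown showed the largest difference of the set. Hpgd oxidises prostaglandins of the E and F series to products with little activity and is known, in mouse and human, from macrophages and regulatory T cells as well as epithelium. Its brighter probe set (1376191) read 213.4 and 264.7 in the DRlyp/lyp pool against 764.2 and 935.8 in the DR+/+ pool. The highest DRlyp/lyp array was far below the lowest DR+/+ array. The log2 difference was -1.83 ± 0.14 (SE, limma adjusted p = 1.98e-06).

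The other Hpgd probe set (1387631), made from the reference transcript, read 39.5 and 31.3 in the DRlyp/lyp pool against 262.7 and 270 in the DR+/+ pool. Its DRlyp/lyp arrays lay close to the filter, its DR+/+ arrays well above it. The log2 difference was -2.92 ± 0.22 (SE, limma adjusted p = 1.76e-06), with pairings of single arrays from -3.11 to -2.73. The 95% intervals of the brighter set, -2.14 to -1.53, and of the dimmer one, -3.40 to -2.44, did not overlap, so the probe sets gave the same direction but not the same size. All 4 values of the dimmer set lay above the floor, and with the lower floor its difference was again -2.92. With an offset of 50 added before the logarithm in place of the floor it was -1.89, beside -1.64 for the brighter set. An offset larger than the DRlyp/lyp signals of the dimmer set must shrink its difference, so these values do not settle the size. Why the sets differed in size was not tested. Among all 16068 tested probe sets, 11 had a difference as low as or lower than the dimmer set and 138 as low as or lower than the brighter set.

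Macrophage and dendritic cell markers were called both ways, 5 higher and 9 lower of 18, with a median log2 difference of -0.36. Of all genes tested by 1 probe set each, 20.9% were called higher and 21.1% lower. The complement chain C1qb read 285 and 337.5 in the DRlyp/lyp pool against 833.8 and 952.1 in the DR+/+ pool, and the growth factor receptor Csf1r 1038.6 and 921.5 against 1556.1 and 1559.5. The lysosomal marker Cd68 was at 2512.5 and 2567.8 against 1746 and 1846.1. C1qb (limma adjusted p = 2.63e-06) and Csf1r (adjusted p = 7.67e-05) were thus lower, and Cd68 (adjusted p = 0.000108) was higher. Of 4 tested genes of the platelet list, 2 were higher and 2 lower, with a summed signal of 893 to 914 against 721 to 742. Among them Pf4 read 36.7 and 32.3 against 100.1 and 128.4. Ppbp stayed below 28.3 on every array, as did 7 of the 11 matched platelet genes in all. Of the neutrophil list, 3 of 7 genes were higher and 1 lower, with a summed signal of 3238 to 3302 against 1784 to 2105. Of the T cell list, 14 of 15 genes were higher and 1 lower, whereas both Hpgd sets were lower. The part of these cell types in the differences of the enzymes was not tested.

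The other genes of the pathway were taken from 5 lists of 89 genes, of which 76 had a probe set and 48 were tested, each by its brightest tested set. Of the 48, 19 were called, 13 as higher in the DRlyp/lyp pool and 6 as lower, or 39.6%, where 42% of all 9349 genes tested in this way were called, 20.9% as higher and 21.1% as lower. The median log2 difference was 0.02, and 0.00 over all genes. Of the 48, 5 lay below 28.3 on both DR+/+ arrays and so entered the test only through the DRlyp/lyp pool, where they were high, and 3 of these are among the 13. Of the 43 others, 10 were higher and 6 lower. Ptgis is among these 10, although only 1 of its DR+/+ arrays exceeded 28.3, at 28.4. Its DR+/+ arrays alone would not have passed the filter. With the 5 at their bound the median was 0.01. The split also moved with the processing. Under median centring 46 of these genes were tested, and 10 were higher and 10 lower. The calls of all probe sets shifted downward there too, with 36.0% of them higher, against 49.3% in the setting of the report. With a gene's tested probe sets averaged, 10 of 48 were higher and 8 lower, and no background share is given for that setting.

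Genes that supply or hold arachidonate were called in both directions, 6 higher and 5 lower of 22, with a median of -0.07. That was 50% called, where 42% of all genes were. The desaturase Fads1, which makes arachidonate from its precursor, read 93.5 and 119.6 in the DRlyp/lyp pool against 220.3 and 264 in the DR+/+ pool, a fall of 2.28-fold (limma adjusted p = 0.000449). Daglb, a diacylglycerol lipase, read 453.5 and 392.2 against 761.8 and 654.7 (adjusted p = 0.000452). The secreted phospholipase Pla2g2d read 957.2 and 929.4 against 1454.6 and 1626.2 (adjusted p = 5.37e-05). All 3 were lower. Their pools did not overlap, but the rule for naming genes required this, and it held for 70% of all tested probe sets.

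Lpcat3, an acyltransferase that puts arachidonate back into phospholipids, was higher at 741.6 and 647.8 in the DRlyp/lyp pool against 447 and 416 in the DR+/+ pool (limma adjusted p = 0.000487). The annexin Anxa2 was higher at 2635.6 and 2857.7 against 1667.8 and 1731.7 (adjusted p = 1.33e-05). Pla2g2f, another secreted phospholipase, was higher by 1.86-fold (adjusted p = 0.0396), but not when DRlyp/lyp replicate 1, DRlyp/lyp replicate 2 or DR+/+ replicate 2 was left out (highest adjusted p = 0.281), nor with median centring (adjusted p = 0.0674). Cotl1, which binds the lipoxygenase, was lower by 1.28-fold (adjusted p = 0.00390), or an adjusted p of 0.0729 once DRlyp/lyp replicate 1 was left out. Pla2g1b, the phospholipase of pancreatic juice, read 139.6 and 283 against 3.7 and 5.9, at least 7.02-fold higher, and entered the test only through the DRlyp/lyp pool. It is also on the exocrine pancreas list, whose 19 tested genes were all higher.

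**Figure D3:**
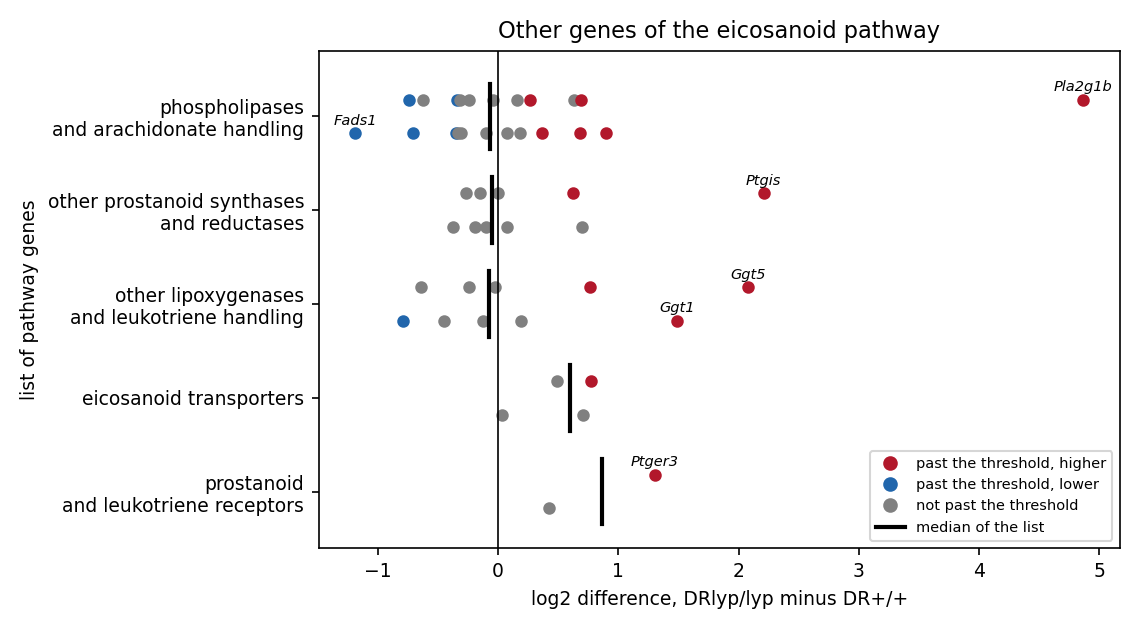
Log2 difference, DRlyp/lyp minus DR+/+, of the 48 tested other genes of the pathway in 5 lists, 1 point per gene coloured by its call and a bar at each list's median. Points lie on both sides of 0 in the phospholipase, synthase and lipoxygenase lists, whose medians are -0.07, -0.05 and -0.08, and named genes are those called with a difference above 1 in size.

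Of 10 other prostanoid synthases and reductases, 2 were called higher and 0 lower, or 20%, where 42% of all genes were called. Ptgis, prostacyclin synthase, read 56.2 and 73.5 in the DRlyp/lyp pool against 4.9 and 28.4 in the DR+/+ pool (limma adjusted p = 0.00924). Only 1 DR+/+ array passed 28.3, and the call was lost without DRlyp/lyp replicate 1 or replicate 2 (highest adjusted p = 0.112). Ptgr2, a reductase that acts on the products of Hpgd, read 535 and 483.4 against 298.6 and 365.5 (adjusted p = 0.00276), or an adjusted p of 0.0652 once DRlyp/lyp replicate 1 was left out. Hpgd and Ptgr2, consecutive steps of prostaglandin breakdown, thus differed in opposite directions.

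Of the other lipoxygenase and leukotriene genes, 3 were higher and 1 lower of 10, or 40% called beside 42% of all genes. The glutathione transferase Mgst1 read 1318.6 and 1121.6 in the DRlyp/lyp pool against 671.9 and 764.4 in the DR+/+ pool (limma adjusted p = 0.000145). Of the transpeptidases that trim cysteinyl leukotrienes, Ggt5 read 112.9 and 77.5 against 26.8 and 18.3, at least 3.31-fold higher, and entered the test only through the DRlyp/lyp pool. Ggt1 read 73.2 and 92.2 against 29.5 and 29.2 (adjusted p = 0.00206), or an adjusted p of 0.0552 once DRlyp/lyp replicate 2 was left out. The epoxide hydrolase Ephx1, at 43.7 and 35.5 against 63 and 73.7, was barely past the threshold (adjusted p = 0.0492) and was not past it when any 1 of the 4 arrays was left out (highest adjusted p = 0.242).

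Transport and reception were thinly measured. The export pump Abcc1, which carries cysteinyl leukotrienes, read 219 and 182.1 in the DRlyp/lyp pool against 127.8 and 106.7 in the DR+/+ pool (limma adjusted p = 0.00607), or an adjusted p of 0.112 once DRlyp/lyp replicate 1 was left out. It was the 1 called gene of 4 tested transporters, or 25%, where 42% of all genes were called. Of 12 matched receptors only Ptger3 and Pparg were tested. Ptger3, a receptor for prostaglandin E, read 35.2 and 42.9 against 16.3 and 15.2, at least 1.37-fold higher. It too entered the test only through the DRlyp/lyp pool, and its call was lost when DRlyp/lyp replicate 1 or replicate 2 was left out (highest adjusted p = 0.197). Pparg did not pass the threshold (adjusted p = 0.334). The other receptors of the list were not tested, and 9 of the 12 did not exceed 28.3 on any array.

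The calls of the enzymes did not all hold equally under other processing. The tallies below leave out the means of probe sets by gene. With those, Hpgds missed the threshold (limma adjusted p = 0.0548) and Ptgs1 was just past it (adjusted p = 0.0481). Lta4h, Tbxas1 and Hpgd stayed past it there. The dimmer Hpgd set stayed past the threshold in 13 of 13 alternatives and the brighter in 12 of 13, the exception being the fit without a filter (adjusted p = 0.0524). Tbxas1 stayed past it in 11 of 13, with the exceptions of the fit without a filter (adjusted p = 0.0595) and the test against a 1.5-fold difference (adjusted p = 0.0777). Ptgs1 and Lta4h stayed past it in 9 of 13 each and Hpgds in 5 of 12.

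**Figure D4:**
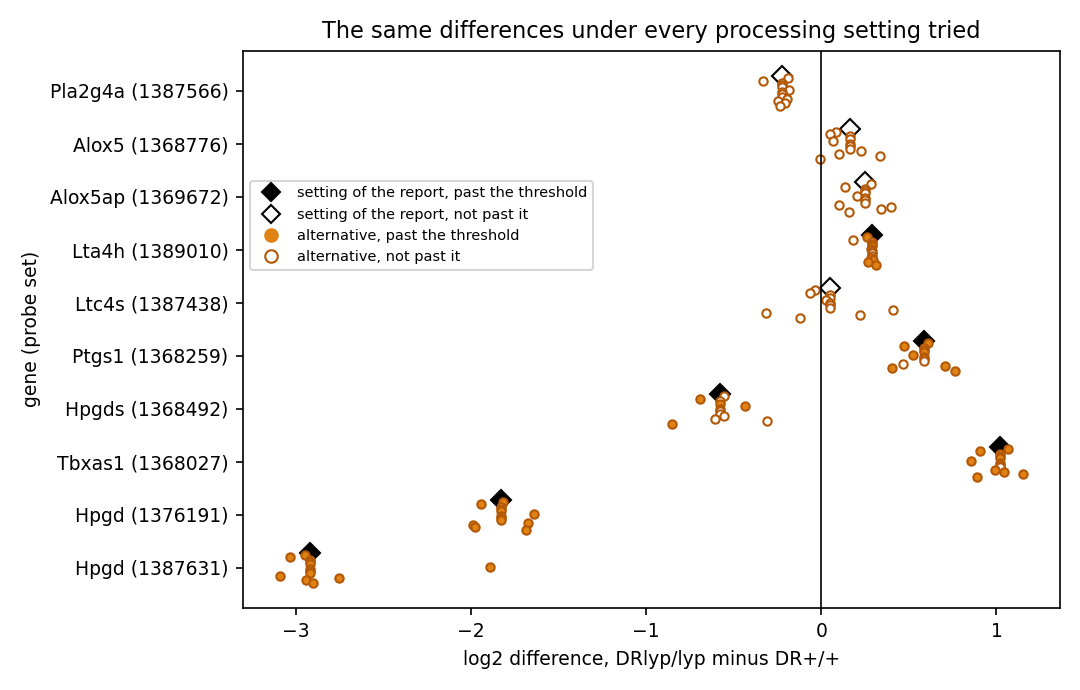
Log2 difference, DRlyp/lyp minus DR+/+, of the 10 tested probe sets under the setting of the report (diamonds) and under each alternative but the means of probe sets (circles), filled where the adjusted p was under 0.05. The Hpgd, Tbxas1, Ptgs1, Lta4h and Hpgds points keep to their own side of 0, while those of Ltc4s lie on both sides.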

How the data were processed

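RNA of AA4-selected cells from pancreatic lymph nodes, labelled as mast cells, was hybridised to Affymetrix arrays of rat genes. Per the labels and the series' design text, 2 RNA pools of 8 animals each gave 2 arrays each, from about 50 ng amplified in 2 cycles. The authors deposited an intensity for each probe set and array, on a linear scale. How it was computed and scaled is not given in the sources used here, and detection calls were not used. Their 2% trimmed mean was 150.1 on every array. Groups and replicate numbers came from the sample titles.

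Control sets (57) were left out. The deposited intensity was raised to 6.8, the pooled 25th percentile, where it was lower, and taken to log2. Tested were the 16068 sets that exceeded 28.3, the pooled median, on 2 or more of 4 arrays. A set not above 28.3 on either array of a pool has only a bound there. Limma 3.58.1 in R 4.3.3 tested DRlyp/lyp minus DR+/+ two-sided (lmFit, eBayes with an intensity trend, 2 residual degrees of freedom), with Benjamini-Hochberg adjustment over all tested sets and a threshold of 0.05. Folds are on the floored scale. The number of arrays limits the precision. The test was checked on simulated arrays. Symbols came from the 2016 platform annotation. All 10 genes matched RefSeq by Entrez number, and 8 had a promoter in its table. Named were all members and, per pathway list, up to 4 called genes each way whose pools did not overlap. Members and lists were chosen with earlier results of these data known. Alternatives were quantile normalization, median centring, other filters and floors, an offset, a replicate block, no trend, a 1.5-fold test, means of probe sets and leaving out each array. Matplotlib 3.10.9 (Python 3.11.15) drew the figures.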

Additional observations from a re-analysis of the deposited data

How the results depend on the processing

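Of the 10 tested probe sets of the enzymes 6 were called. The count was 5 with quantile normalization or median centring, 6 with the lower floor, the offset or the replicate block, 5 of 7 with the filter at the 75th percentile, 4 of 9 genes with probe sets averaged by gene, and 4 to 6 when 1 array was left out. Of all tested probe sets, 39.2% were called in the setting of the report, 39.1% with quantile normalization and 38.1% with median centring. The share was 39% with the lower floor, 40.7% with the offset, 43.8% with the replicate block and 56.1% with the 75th percentile filter. For the averages by gene no share over all genes is given here. The count for the enzymes was 1 of 12 without a filter, 3 of 10 without an intensity trend and 2 of 10 in the test against a 1.5-fold difference. The shares of all tested probe sets in these 3 settings were 5.38% of 31042, 25.2% of 16068 and 5.96% of 16068. Over all probe sets 6302 were called, and 1671, 4057 and 958 under those 3 settings, or 3478 to 5800 with 1 array left out, with the lowest value without DRlyp/lyp replicate 1 and 3767 without DRlyp/lyp replicate 2. Of the 48 other pathway genes tested 19 were called. Without a filter 1 of 76 was called, and with the filter at the 75th percentile 12 of 23. In the test against a 1.5-fold difference it was 2 of 48. The count moved most when a DRlyp/lyp array was left out. The share of all genes called, 1 probe set each, is given only for the setting of the report, at 42%. In the other settings these counts can be read only beside the shares of all probe sets, which moved as well. Differences that were not called changed sign for Ltc4s (0.05; -0.033 with quantile normalization, -0.064 with median centring, -0.32 to 0.41 with 1 array left out, below 0 without DRlyp/lyp replicate 2 and, at -0.12, without DR+/+ replicate 2) and for Alox5 (0.16; -0.0089 to 0.34 with 1 array left out, below 0 without DR+/+ replicate 2). Median centring shifted the median of all tested sets by -0.12, and 36.0% of calls were then higher, against 49.3%. Same-numbered arrays shared only a number (correlation of their deviations 0.04), and the replicate block called 7044 sets in place of 6302 and 21 pathway genes in place of 19, and left the calls of the enzymes as they were. Where a cause is not plain from the setting itself, the cause was not tested. Signal near the filter limits Alox5, Ltc4s and the dimmer Hpgd set, and Ptgs2 gave no usable value.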
